A study of Mus musculus with 8 samples.

Results

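The 10 genes that carry leucine into the cell and begin its breakdown were followed in mouse hearts under pressure overload. They were taken by symbol from the 32285 genes of the count tables, and all 10 were listed: Slc7a5, Slc3a2, Bcat1, Bcat2, Bckdha, Bckdhb, Dbt, Dld, Bckdk and Ppm1k. The hearts came from wild-type male C57BL/6J mice, 8 weeks old at the start, that had transverse aortic constriction (TAC), a ligature that narrows the aortic arch and so loads the left ventricle, or a sham operation without the ligature. Hearts were taken 2 weeks (TAC-2w), 4 weeks (TAC-4w) or 6 weeks (TAC-6w) after TAC. For sham the labels give no time. Each of the 4 conditions had 1 tissue section read by spatial transcriptomics and 1 single-cell library, so no condition has a replicate and no test between conditions was possible. By the labels, the sham and TAC-2w sections share batch 1 while TAC-4w and TAC-6w are alone in batches 2 and 3, and among the libraries only sham and TAC-6w share a batch. For the other comparisons with sham, batch and condition cannot be told apart.

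Leucine, isoleucine and valine, the branched-chain amino acids, enter cells mainly through exchangers of the plasma membrane. Slc7a5 (LAT1, ENSMUSG00000040010) is the light chain that carries leucine, and Slc3a2 (CD98, ENSMUSG00000010095) is the heavy chain that brings it, and several other light chains, to the surface. The first step of breakdown moves the amino group off, in the cytosol by Bcat1 (ENSMUSG00000030268) and in mitochondria by Bcat2 (ENSMUSG00000030826). The second step is irreversible and is made by the branched-chain ketoacid dehydrogenase (BCKDH), built from the E1 subunits Bckdha (ENSMUSG00000060376) and Bckdhb (ENSMUSG00000032263), the E2 core Dbt (ENSMUSG00000000340) and the E3 subunit Dld (ENSMUSG00000020664), which also serves pyruvate and 2-oxoglutarate dehydrogenase. Bckdk (ENSMUSG00000030802) is the kinase that switches BCKDH off and Ppm1k (ENSMUSG00000037826) the phosphatase that switches it on. Heart muscle is known for high BCKDH activity, and leucine is also the amino acid that the growth kinase complex mTORC1 senses.

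The results on the aminotransferases turn on Bcat1, which was read almost only in fibroblast-like cells, against Bcat2, which was read in most cell types, so the promoter windows of both genes are shown. They are RefSeq windows on GRCm38.p6, the build that the labels call mm10, of 300 bases that run from 250 bases before to 50 after a transcription start, read on the strand of the gene. RefSeq windows matched 8 of the 10 genes by symbol, with 2 starts each for Bcat1, Bcat2 and Bckdhb; no window was at hand for Slc7a5 and Dbt. Capitals mark CCAAT (37.4% of 32851 windows hold it on either strand) and TATAAA (13.6%); GGGCGG (35.7%) was searched in the same way. In the windows shown no matches overlapped.
Bcat1, chr6:145076108-145076407, minus strand: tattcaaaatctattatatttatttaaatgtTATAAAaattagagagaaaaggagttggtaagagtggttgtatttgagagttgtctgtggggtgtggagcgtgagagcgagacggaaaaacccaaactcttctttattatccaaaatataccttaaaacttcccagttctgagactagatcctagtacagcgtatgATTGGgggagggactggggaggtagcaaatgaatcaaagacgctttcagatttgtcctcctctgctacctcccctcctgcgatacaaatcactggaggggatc
Bcat1, chr6:145048763-145049062, minus strand: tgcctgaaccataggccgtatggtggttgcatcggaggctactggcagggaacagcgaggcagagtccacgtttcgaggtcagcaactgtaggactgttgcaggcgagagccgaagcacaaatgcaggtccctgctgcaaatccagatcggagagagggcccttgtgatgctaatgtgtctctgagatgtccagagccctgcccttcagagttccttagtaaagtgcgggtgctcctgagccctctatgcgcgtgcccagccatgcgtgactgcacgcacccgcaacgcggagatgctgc
Bcat2, chr7:45569903-45570202, plus strand: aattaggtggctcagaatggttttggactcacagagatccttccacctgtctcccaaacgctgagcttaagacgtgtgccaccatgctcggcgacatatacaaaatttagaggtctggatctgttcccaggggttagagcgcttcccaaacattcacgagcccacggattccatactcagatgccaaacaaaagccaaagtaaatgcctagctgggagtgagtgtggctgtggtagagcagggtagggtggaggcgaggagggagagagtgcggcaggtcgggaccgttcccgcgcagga
Bcat2, chr7:45571029-45571328, plus strand: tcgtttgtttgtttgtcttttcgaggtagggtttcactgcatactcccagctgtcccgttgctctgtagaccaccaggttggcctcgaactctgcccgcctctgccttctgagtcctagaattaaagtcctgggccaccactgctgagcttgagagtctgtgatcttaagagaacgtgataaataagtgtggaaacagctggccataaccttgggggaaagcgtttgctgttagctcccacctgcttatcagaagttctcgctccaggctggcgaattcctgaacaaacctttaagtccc
The first Bcat1 window held 1 TATAAA and, read on the other strand as ATTGG, 1 CCAAT, and its GC content of 41.0% and 6 CpG dinucleotides lay below the medians over all windows of 52.7% and 7. In the second Bcat1 window the GC content was 58.7%, with 16 CpG and none of the 3 motifs. Neither Bcat2 window held any of them, at GC contents of 54.0% and 50.3%. Counts per gene do not tell which start was used.

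In the sections, a level is the summed count of unique molecular identifiers (UMIs) of a gene per 1000000 UMIs outside mitochondrial genes (CPM). Mitochondrial genes, which took 42.2 to 51.5% of the UMIs of a section, were left out of the total. Only spots with 7500 to 15000 such UMIs were used, 727 of 1676 in sham, 1147 of 2063 in TAC-2w, 325 of 1228 in TAC-4w and 510 of 2193 in TAC-6w, so that spots of like depth were compared, with 3919171 to 14418573 UMIs behind a section. Intervals in brackets are exact 95% intervals and cover counting error only, not the difference between hearts. The 6 cardiomyocyte markers summed to 42458 CPM in sham, 42271 in TAC-2w, 30675 in TAC-4w and 38489 in TAC-6w, with none of them at 0. In bulk spots of this kind, fewer cells of a type and less RNA per cell cannot be told apart.

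**Figure D1:**
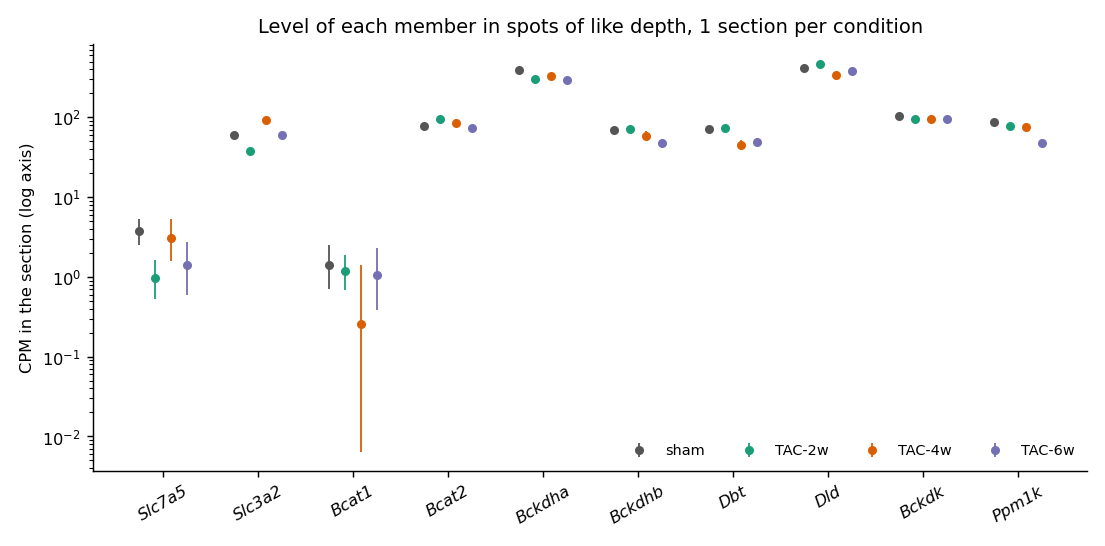
CPM of the 10 members (log axis) in depth-matched spots of the 4 sections, with 1 point per section and its exact 95% counting interval. Bckdha and Dld lie near the top in every section, and Slc7a5 and Bcat1 stay under 4 CPM.

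A member was called past the fold when its ratio to sham was at least 1.5 or at most 1/1.5, for genes that reached 50 UMIs in one section or the other. Of the 10 members 8 reached 50 UMIs, all but Slc7a5 and Bcat1. In TAC-2w, 0 members were higher past the fold (1.73% of 10316 genes were) and 1 was lower, Slc3a2 (10.7% of genes). In TAC-4w, 1 was higher, Slc3a2 (5.24% of 9416 genes), and 1 lower, Dbt (8.67% of genes). In TAC-6w, 0 were higher (5.72% of 9497 genes) and 1 was lower, Ppm1k (2.54% of genes). With 8 members measured, a count of 0 or 1 past the fold is too small to set the members apart from other genes or to liken them to these. In TAC-6w the count of lower members also moved with the choice of spots, as given below. The median ratio over all genes was 0.878 in TAC-2w, 0.953 in TAC-4w and 1.04 in TAC-6w, and the median over the 8 members was 0.957, 0.856 and 0.818. Relative to the median gene, the TAC-6w ratios of all 10 members lay below 1, from 0.359 (Slc7a5) to 0.958 (Slc3a2).

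Of the carriers, Slc7a5 had 29 UMIs (3.72 CPM) in the sham section, 14 (0.971 CPM) in TAC-2w, 12 (3.06 CPM) in TAC-4w and 8 (1.39 CPM) in TAC-6w. It was seen in 1.13 to 3.99% of spots, too few for a call. With all spots over tissue, 44, 25, 63 and 56 UMIs gave 3.49, 0.906, 3.41 and 2.08 CPM, the same order of the sections for TAC-2w and TAC-6w, both below sham. Slc3a2 stood at 60.1 CPM (54.8 to 65.8) in sham, 37.6 (34.5 to 40.9) in TAC-2w, 91.9 (82.6 to 102) in TAC-4w and 59.96 (53.8 to 66.6) in TAC-6w. It was thus lowest in TAC-2w and highest in TAC-4w, while TAC-6w matched sham within counting error. The ratio to sham was 0.626 (0.552 to 0.710) in TAC-2w, 1.53 (1.33 to 1.76) in TAC-4w and 0.998 (0.866 to 1.15) in TAC-6w. The TAC-4w call was kept in 5 of the 9 other ways of choosing spots or totals, with ratios from 1.42 to 1.77, and the TAC-2w call in 8 of 9.

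Sections were also divided into 4 sectors of array rows and columns, of 64 to 340 spots each. The sectors of TAC-2w lay between 34.4 and 39.4 CPM for Slc3a2 and those of sham between 57.2 and 72.5, without overlap. In TAC-4w they ran from 77.3 to 108 CPM, all above the sham sectors. Sectors of a section are not replicates, and they show only that the order held in every sector. Relative to the median gene, the TAC-2w ratio was 0.712, inside the fold, and the TAC-4w ratio 1.60.

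Markers of neutrophils and macrophages were lower than in sham where Slc3a2 was lower, in TAC-2w, and higher where it was higher, in TAC-4w. In TAC-6w, where Slc3a2 matched sham, the neutrophil sum was at 0.482 of sham. The 6 neutrophil markers summed to 61.1 CPM in sham, 11.7 in TAC-2w, where 0 of 6 were higher than in sham, 160 in TAC-4w, where 4 of 6 were higher, and 29.5 in TAC-6w, where 2 of 6 were. The 6 macrophage markers summed to 451, 321, 630 and 530 CPM, with 0, 6 and 5 of 6 higher than in sham by time after TAC. Cxcr2 was at 0 in TAC-6w, and no other marker of the 2 lists was at 0 in a section. By their sums, other lists also lay below sham in TAC-2w and above it in TAC-4w. Their sums stood at 0.832 and 6.12 of sham for monocytes, 0.634 and 1.23 for dendritic cells and 0.694 and 1.24 for B cells. For T cells they were 0.753 and 2.64 and for platelets 0.965 and 1.03. Endothelial cells had 0.803 and 1.09, and mesothelial cells 0.517 and 2.37. Single markers did not all follow the sums. In TAC-2w, 4 of 6 monocyte, 3 of 6 dendritic cell, 3 of 6 B cell and 2 of 6 T cell markers were higher than in sham. So were 4 of 6 platelet, 0 of 6 endothelial and 1 of 6 mesothelial markers. The same lists had 6, 5, 4, 6, 5, 1 and 5 of 6 higher in TAC-4w, in this order. In TAC-6w the T cell sum was at 2.76 and the platelet sum at 1.33. The remaining lists did not go this way. Among them, the red blood cell sum stood at 1.76, 0.722 and 1.46 of sham by time after TAC. The NK cell sum stood at 1.10, 3.79 and 7.22. The T and NK cell sums were at most 21.6 CPM in a section. The part of these cells in the Slc3a2 result was not tested.

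The aminotransferases differed in depth. Bcat1 had 11 UMIs (1.41 CPM) in sham, 17 (1.18 CPM) in TAC-2w, 1 (0.255 CPM) in TAC-4w and 6 (1.05 CPM) in TAC-6w. In these depth-matched spots a difference between sections was not detectable. All spots over tissue were read in parts, as spots rich in fibrillar collagen (described below) and the rest. From sham to TAC-6w, Bcat1 had 1.73, 0.859, 0.432 and 1.38 CPM in the rich spots (6, 6, 2 and 9 UMIs). In the rest it had 1.42, 1.17, 0.723 and 1.52 CPM (13, 24, 10 and 31 UMIs). TAC-4w was lowest in both parts, and its difference from sham was not tested there. Bcat2 had 78.6 CPM (72.5 to 85.1) in sham, 96.4 (91.4 to 102) in TAC-2w, 84.7 (75.8 to 94.3) in TAC-4w and 73.4 (66.5 to 80.7) in TAC-6w. The Bcat2 ratio to sham was 1.23 (1.11 to 1.35) in TAC-2w, and in TAC-4w and TAC-6w it lay within counting error of 1. Bcat2 sectors of TAC-2w, at 92.2 to 104 CPM, overlapped those of sham, at 72.8 to 93.1.

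Among the BCKDH subunits, Bckdha stood at 398 CPM (384 to 413) in sham, 307 (298 to 316) in TAC-2w, 330 (312 to 349) in TAC-4w and 295 (281 to 309) in TAC-6w. All 3 TAC sections lay below sham, at ratios of 0.770 (0.735 to 0.807), 0.829 (0.776 to 0.885) and 0.740 (0.697 to 0.786), none past the fold, and within each of them every sector lay below the lowest sham sector of 381 CPM. The TAC-2w section shares its batch with sham. Relative to the median gene the 3 ratios were 0.877, 0.870 and 0.710.

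Bckdhb, the other E1 subunit, had 69.8 CPM in sham, 70.8 in TAC-2w, 59.2 in TAC-4w and 47.2 in TAC-6w. It matched sham at TAC-2w, with a ratio of 1.01 (0.913 to 1.13), and was lower at TAC-4w (0.848, 0.724 to 0.990) and TAC-6w (0.676, 0.582 to 0.784). The TAC-6w value lies just inside the fold of 1.5, and Bckdhb past it relative to the median gene, at 0.649.

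Dbt, the E2 core, was read at 72.2 CPM in sham, 73.2 in TAC-2w, 45.4 in TAC-4w and 49.5 in TAC-6w. Sham and TAC-2w were alike, TAC-4w and TAC-6w were lower, and no sector of TAC-4w (41.0 to 49.9 CPM) or TAC-6w (46.8 to 51.2) reached the lowest of sham (63.8). The ratios were 1.01 (0.915 to 1.13), 0.629 (0.529 to 0.746) and 0.686 (0.593 to 0.793). Dld, the shared E3 subunit, had 415 CPM in sham, 465 in TAC-2w, 339 in TAC-4w and 386 in TAC-6w, with ratios of 1.12 (1.07 to 1.17), 0.817 (0.766 to 0.871) and 0.929 (0.880 to 0.981). The cardiomyocyte marker sum had ratios of 0.996, 0.722 and 0.907 in the same sections, with 3, 2 and 1 of 6 markers higher than in sham; its part in the results on BCKDH was not tested. At TAC-4w the marker ratio was lower than that of Bckdha, Bckdhb and Dld and higher than that of Dbt, and at TAC-6w it was higher than that of Bckdha, Bckdhb and Dbt.

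**Figure D2:**
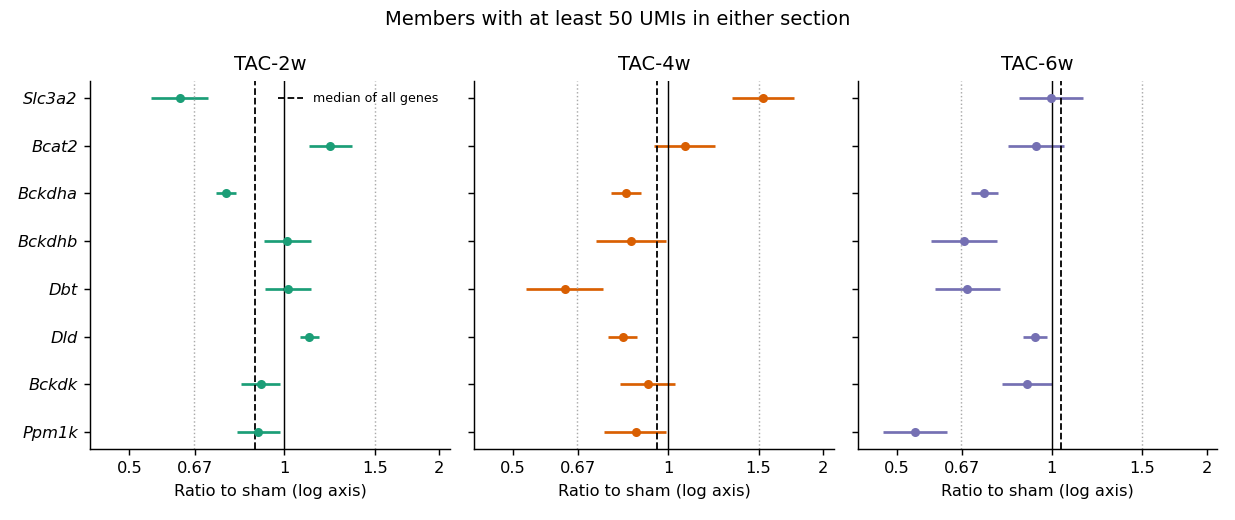
Ratio to sham (log axis) of the 8 members with at least 50 UMIs in either section, with exact 95% counting intervals. The dashed line is the median over all genes, dotted lines mark a 1.5-fold change, and Ppm1k in TAC-6w lies farthest to the left, at 0.543.

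Of the regulators, the kinase Bckdk varied little. It had 105 CPM (98.3 to 113) in sham, 94.9 (89.9 to 100.04) in TAC-2w, 96.2 (86.7 to 106) in TAC-4w and 94.5 (86.7 to 103) in TAC-6w, with ratios of 0.9001, 0.913 and 0.896. The phosphatase Ppm1k had 88.2 CPM (81.7 to 95.1) in sham, 78.4 (73.9 to 83.1) in TAC-2w, 76.3 (67.9 to 85.4) in TAC-4w and 47.9 (42.4 to 53.9) in TAC-6w. TAC-6w stood apart from the other 3 sections, and its sectors of 41.9 to 54.0 CPM lay below every sector of the others, the lowest of which was 71.4 CPM in TAC-2w. Its ratio to sham was 0.543 (0.471 to 0.626), and it stayed past the fold in each of the 9 other ways of choosing spots or totals, at 0.615 or less. TAC-6w is alone in its batch, so this difference and the batch cannot be told apart.

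Counting kinase against phosphatase within a section needs no total. There were 821 Bckdk and 687 Ppm1k UMIs in sham (1.195 to 1, interval 1.08 to 1.32), 1368 and 1131 in TAC-2w (1.21, 1.12 to 1.31), 377 and 299 in TAC-4w (1.26, 1.08 to 1.47) and 542 and 275 in TAC-6w (1.97, 1.70 to 2.29). The 3 former sections overlapped in their intervals, and TAC-6w lay above all of them. With all spots over tissue the values were 1.22, 1.25, 1.33 and 1.90. A ratio within a section shows unequal change and not which of the 2 genes moved, and the capture of each transcript is not known, so its level has no meaning beyond the comparison of sections.

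**Figure D3:**
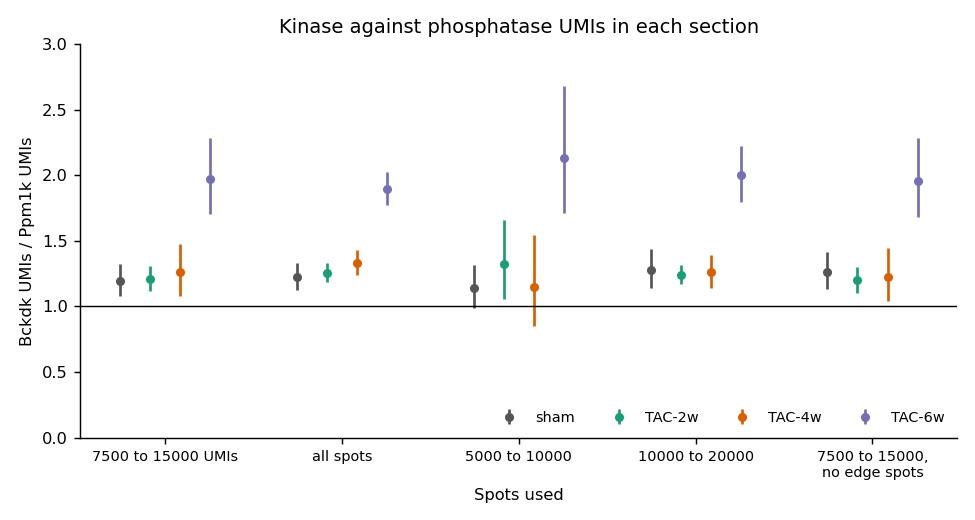
Bckdk UMIs divided by Ppm1k UMIs in each section (points, exact 95% counting intervals) for 5 choices of spots. TAC-6w lies between 1.90 and 2.13 and the other sections between 1.14 and 1.33.

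The sections also allowed a comparison of spots rich in fibrillar collagen, the 25% of depth-matched spots with the highest share of Col1a1, Col1a2 and Col3a1, with the other spots of the same section. Median depth was alike in sham, 10834 UMIs in rich spots and 10436 in the rest. Ppm1k was lower in the rich spots of 4 of 4 sections, with ratios of 0.780 in sham, 0.965 in TAC-2w, 0.874 in TAC-4w and 0.797 in TAC-6w, and the interval left out 1 in sham only (0.645 to 0.938). With all spots over tissue TAC-2w turned to 1.02, so that Ppm1k was lower in 3 of 4. Dbt was also lower in 4 of 4, at 0.793, 0.946, 0.983 and 0.732, and its interval left out 1 in sham and TAC-6w. Dld was lower in 4 of 4, at 0.909 (0.838 to 0.986), 0.937 (0.885 to 0.992), 0.845 (0.739 to 0.964) and 0.990 (0.897 to 1.09), with 1 outside the interval in 3 of them. These are 3 of the 8 members with enough UMIs, beside 9.30% of 6024 genes that were lower in 4 of 4. Enough meant at least 50 UMIs in the other spots of each section, with no minimum in the rich spots. A gene could thus enter through the spots where it was higher, so these shares are descriptions only. The remaining members with enough UMIs, Bckdha (0.840 to 1.00), Bckdhb (0.763 to 1.08), Bcat2 (0.857 to 1.03), Bckdk (0.918 to 1.15) and Slc3a2 (0.909 to 1.26), ranged around or under 1. The interval left out 1 for Bckdha in TAC-4w and TAC-6w and for Bckdhb in TAC-2w (0.829, 0.711 to 0.963). An exact test over 4 sections cannot go below a two-sided p of 0.125, so none was used to call a member.

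The other genes of the pathway were taken from 5 lists. Of 7 other leucine carriers 4 reached 50 UMIs, with 0 higher and 1 lower in TAC-2w, 0 and 1 in TAC-4w and 1 and 0 in TAC-6w. The lower ones were Slc1a5 in TAC-2w and Slc25a44 in TAC-4w. Slc1a5, which takes up the glutamine whose export can drive leucine exchange, had 34.7 CPM in sham and 18.1 in TAC-2w (ratio 0.522, 0.439 to 0.621). Slc25a44, the mitochondrial carrier of branched-chain amino acids, had 12.1 CPM in sham and 7.91 in TAC-4w (0.655, 0.422 to 0.993). The higher one was Slc43a2 (LAT4), a facilitative leucine carrier, at 18.6 CPM in sham and 30.7 in TAC-6w (1.65, 1.32 to 2.07).

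Downstream of BCKDH, 7 of 7 genes of the leucine branch and 12 of 12 of the isoleucine and valine branches were measured. In the leucine branch only Oxct1, which activates ketone bodies for oxidation, passed the fold, at 992 CPM in sham and 621 in TAC-4w (0.626, 0.598 to 0.655), and 0 of 12 passed it in the other branches in any section. Their median ratios in TAC-6w were 0.872 and 0.876, beside 1.04 over all genes, and in TAC-4w 0.892 and 0.908 beside 0.953. Of the 6 subunits of the sister complexes that share Dld, Pdhb, an E1 subunit of pyruvate dehydrogenase, was lower in TAC-4w, at 738 and 472 CPM (0.639, 0.606 to 0.673), where the list's median was 0.729; the list had 0 genes past the fold in the other sections. Of 7 genes of leucine sensing at mTORC1 6 were measured, and Sesn3, a sestrin, was lower in TAC-4w, at 10.9 and 5.87 CPM (0.538, 0.324 to 0.861, on 23 UMIs in TAC-4w).

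In the libraries, cells kept numbered 7965 in sham, 6293 in TAC-2w, 6531 in TAC-4w and 5399 in TAC-6w, with medians of 4449 to 10717 UMIs per cell. Cells were clustered without the members and the pathway genes, and clusters were named "-like" from 6 fixed markers per type. Between 46 and 77 cell barcodes of a library also occurred in another library. The labels' extraction text is about nuclei, the study's methods are about whole cells, and the titles say single-cell, so which of them was sequenced is not settled here. Fibroblast-like cells came to 4485 in sham and 3226, 431 and 2875 in the TAC libraries by time, that is 56.3, 51.3, 6.60 and 53.3% of cells, so TAC-4w values rest on few of them. Cardiomyocyte-like barcodes reached 50 in sham (107) and TAC-2w (75) only, held a median of 2186 UMIs and were led by genes of atrial muscle (Myl7, Sln, Myl4) as well as of ventricular muscle (Myl2, Myl3). Muscle cells of either kind are thus few among the cells.

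Bcat1 was read almost only in fibroblast-like cells. Of 1271 Bcat1 UMIs in the named cells of the 4 libraries 1246 (98.0%) lay in them, or 98.6% in sham, 98.0% in TAC-2w, 88.0% in TAC-4w and 99.1% in TAC-6w, whereas these cells held 66.9, 62.2, 16.4 and 70.7% of all UMIs. For Bcat2 the share in fibroblast-like cells was 60.9, 54.0, 23.0 and 73.7%, closer to the share of all UMIs in each library.

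By level, Bcat1 had 10.8 CPM in the fibroblast-like cells of sham (505 UMIs), 12.2 in TAC-2w (486 UMIs), 7.23 in TAC-4w (44 UMIs) and 11.4 in TAC-6w (211 UMIs). Sham, TAC-2w and TAC-6w overlapped in their intervals, and TAC-4w was lower, with a ratio to sham of 0.668 (0.479 to 0.910). S100a8, a neutrophil gene that reads out free RNA here, stood at 272 CPM in the TAC-4w fibroblast-like cells. In those of sham, TAC-2w and TAC-6w it stood at 2.31, 3.10 and 17.4. Igkc, a B cell gene, was also higher in TAC-4w (86.0 CPM) than in sham (4.37). The muscle genes Myh6 (1.31 in TAC-4w and 23.5 in sham), Tnnt2 (9.37 and 21.2) and Actc1 (2.63 and 10.7) were lower. So was the red blood cell gene Hba-a2 (281 and 561). The part of free RNA in the lower Bcat1 level was not tested. In macrophage-like cells, the next most numerous type in sham, there were 3, 3, 0 and 0 Bcat1 UMIs, or 0.265, 0.219, 0 and 0 CPM, and a count of 0 allows up to 2.21 CPM in TAC-4w and 0.892 in TAC-6w (3 counts). The median over libraries was highest in fibroblast-like cells (11.1 CPM), then in T cell-like (0.981) and dividing cell-like cells (0.961), which rest on 3 and 7 UMIs and do not differ beyond their spread. In the libraries with at least 50 such cells, no Bcat1 UMI was read in NK cell-, smooth muscle cell or pericyte-, cardiomyocyte-, platelet- or red blood cell-like cells. For cardiomyocyte-like barcodes, 0 UMIs allow up to 7.93 CPM in sham and 9.39 in TAC-2w, so a level somewhat below that of the fibroblast-like cells was not detectable there.

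**Figure D4:**
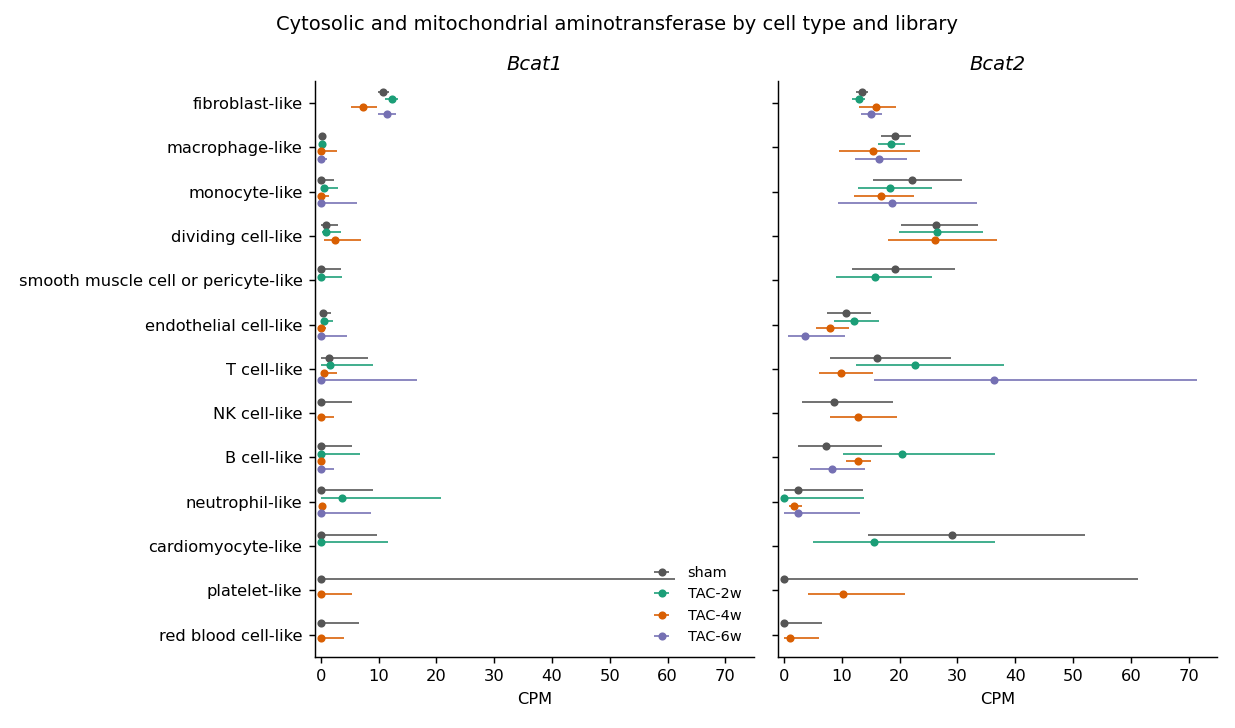
CPM of Bcat1 and Bcat2 by cell type, with 1 point per library of at least 50 such cells and its exact 95% counting interval. Bcat1 lies between 7.23 and 12.2 CPM in fibroblast-like cells and at most at 3.74 elsewhere, and Bcat2 is spread over the types.

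Bcat2 varied less between types. Its median over libraries was 26.4 CPM in dividing cell-like cells, 22.4 in the few cardiomyocyte-like ones (16 UMIs), 19.4 in T cell-like, 18.5 in monocyte-like, 17.5 in smooth muscle cell or pericyte-like, 17.4 in macrophage-like and 14.3 in fibroblast-like cells. NK cell-like (10.8 CPM), B cell-like (10.6 CPM) and endothelial cell-like cells (9.37) followed, and neutrophil-like cells were lowest of the types in 4 libraries, at 2.03 CPM on 12 UMIs. The monocyte-like level rests on a cluster with Cd209a and Ccl17, genes of dendritic cells, among its leading genes. At a resolution of 0.5 this cluster came apart, and Bcat2 had 8.31, 7.78 and 10.9 CPM in the monocyte-like cells of sham, TAC-2w and TAC-4w (2, 3 and 21 UMIs) and 25.9, 19.7 and 24.6 CPM in the dendritic cell-like cells of sham, TAC-2w and TAC-6w (32, 28 and 11 UMIs). In the coarser clusters, from T cell-like down to macrophage-like cells the ranges over libraries overlapped. In fibroblast-like cells the 4 libraries lay between 12.9 and 15.9 CPM.

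Bcat1 as a percent of Bcat1 and Bcat2 UMIs together was 44.5% (41.6 to 47.4) in the fibroblast-like cells of sham, 48.6% (45.5 to 51.7) in TAC-2w, 31.2% (23.7 to 39.5) in TAC-4w and 43.0% (38.5 to 47.5) in TAC-6w. In macrophage-like cells it was 1.36% (0.281 to 3.92), 1.17% (0.241 to 3.37), 0% (up to 16.1) and 0% (up to 6.49). Of the 6 other types with at least 50 cells in all 4 libraries, 5 lay below fibroblast-like cells in 4 of 4 libraries. Neutrophil-like cells did so in 3 of 4, and the exception was a share from 1 Bcat1 UMI and 0 Bcat2 UMIs in TAC-2w. Some of the lower shares rest on as few UMIs. Neutrophil-like cells had 0 Bcat1 UMIs and 1 Bcat2 UMI in sham and again in TAC-6w. Endothelial cell-like cells had 0 and 3 in TAC-6w. In the B cell-like cells of sham, 0 and 5 UMIs gave an interval up to 52.2%, which holds the fibroblast-like share. The mean difference to macrophage-like cells was 41.2 percentage points, with an exact two-sided paired permutation p of 0.125, the smallest that 4 libraries can give.

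The fibroblast-like cells came in 3 clusters, led by Pla1a and Pcsk6, by Igfbp3 and Sfrp2, and by Wif1 and Chad. Among cells under 5% mitochondrial UMIs, the Wif1 cluster was named smooth muscle cell or pericyte-like instead. The same held for a cluster led by Gdf10 and Comp, described below. Bcat1 had 10.6, 10.3, 13.4 and 10.8 CPM in the Pla1a cluster of the 4 libraries, in the order sham to TAC-6w, and 11.8, 15.2, 6.28 and 15.3 CPM in the Igfbp3 cluster. In the Wif1 cluster, of 167, 160, 40 and 68 cells, it had only 4, 1, 2 and 0 UMIs, while Bcat2 had 31, 33, 13 and 4. The Bcat1 share was therefore 11.4% (3.203 to 26.7) in the Wif1 cluster of sham, against 45.1% (40.7 to 49.6) and 45.9% (41.8 to 49.98) in the others. The lower TAC-4w value lay in the Igfbp3 cluster, with a ratio to sham of 0.533 (0.345 to 0.793) on 27 UMIs, and not in the Pla1a cluster, which held 15 UMIs (1.26, 0.694 to 2.12). At a resolution of 0.5 the Igfbp3 cluster gave off a cluster led by Gdf10 and Comp, with 209 of the 431 fibroblast-like cells of TAC-4w and 115 of the 4485 of sham. Bcat1 then had 11.8 CPM (6.46 to 19.8, 14 UMIs) in TAC-4w and 12.2 (10.8 to 13.7) in sham in the Igfbp3 cluster, and 3.95 CPM (2.04 to 6.90, 12 UMIs) and 4.11 (1.34 to 9.60, 5 UMIs) in the Gdf10 cluster. Within these finer clusters TAC-4w lay within counting error of sham, and the clusters differed in their share of cells. On so few UMIs the intervals also hold a fall as large as the ratio of 0.668 over all fibroblast-like cells. The part of the cluster shares in the lower TAC-4w level was not tested.

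As a share of cells, 9.57% of fibroblast-like cells of sham, 12.1% of TAC-2w, 7.89% of TAC-4w and 6.57% of TAC-6w held a Bcat1 UMI, at median depths of 10133, 12093, 13455 and 6059 UMIs. In macrophage-like cells the shares were 0.188, 0.190, 0 and 0% at 6782, 8260, 6541 and 3529 UMIs. In dividing cell-like cells they were 1.02, 1.22 and 2.78% in sham, TAC-2w and TAC-4w. The part of free RNA in these shares was not tested. Thinned to 1000 UMIs per cell, the expected shares for fibroblast-like cells were 1.04, 1.202, 0.740 and 1.12%, after leaving out 36, 32, 1 and 37 shallower cells. At that equal depth TAC-6w was not lower than sham.

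By the likeness of log2(CPM + 1) over 41 sums of a type and a library, the genes closest to Bcat1 were Glt8d2 (Pearson r 0.914), Chad (0.906) and Sntg1 (0.869). For Bcat2 they were Mrpl11 (0.884), Commd9 (0.878) and Snrpb2 (0.870). For Slc7a5 the values were lower, Hectd4 (0.667), Gm17092 (0.659) and Hivep3 (0.635). The sums share libraries and differ in depth, so these are descriptions only. Chad is also a leading gene of the cluster of fibroblast-like cells in which Bcat1 was sparse.

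Slc7a5 differed between the fibroblast-like cells of the libraries. It had 97 UMIs (2.08 CPM, 1.69 to 2.54) in sham, 102 (2.57 CPM, 2.09 to 3.12) in TAC-2w, 28 (4.60 CPM, 3.06 to 6.65) in TAC-4w and 170 (9.18 CPM, 7.85 to 10.7) in TAC-6w. TAC-6w was highest and lay outside the intervals of the other libraries. The ratio to sham was 1.23 (0.926 to 1.65) in TAC-2w, 2.21 (1.40 to 3.40) in TAC-4w and 4.42 (3.42 to 5.73) in TAC-6w, and the last is a comparison within a batch. Cells with a Slc7a5 UMI made up 2.01, 2.67, 5.34 and 4.77% of fibroblast-like cells and 1.25, 1.59, 4.86 and 1.44% of macrophage-like cells, and at 1000 UMIs per cell the expected shares were 0.183, 0.209, 0.504 and 0.754% against 0.161, 0.208, 0.674 and 0.346%. All of these lie near the level of single UMIs, so the comparison rests on the summed counts.

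The Pla1a cluster held 62 of the 97 UMIs of sham, 14 of the 28 of TAC-4w and 158 of the 170 of TAC-6w. There Slc7a5 had 62 UMIs (2.88 CPM) in sham, 71 (4.13 CPM) in TAC-2w, 14 (12.5 CPM) in TAC-4w and 158 (11.02 CPM) in TAC-6w, a ratio of 3.82 (2.83 to 5.21) for TAC-6w. In the Igfbp3 cluster it had 33, 27, 8 and 8 UMIs, or 1.42, 1.33, 1.86 and 2.19 CPM. The TAC-6w ratio there, 1.54 (0.614 to 3.40), was within counting error of 1. On 8 UMIs, its interval also overlapped that of the Pla1a cluster. The Wif1 cluster held 2, 4, 6 and 4 UMIs, too few for a comparison. The Pla1a cluster also held more of the fibroblast-like cells in TAC-6w, 2131 of 2875, than in sham, 1930 of 4485. In other types Slc7a5 was sparse. Macrophage-like cells held 20, 26, 13 and 14 UMIs (1.76, 1.90, 9.57 and 4.16 CPM). Endothelial cell-like cells held 3, 19, 13 and 5 (0.946, 5.73, 3.16 and 6.06 CPM). In macrophage-like cells the ratio to sham was 1.08 (0.578 to 2.03), 5.42 (2.48 to 11.5) and 2.36 (1.10 to 4.92) by time after TAC. In endothelial cell-like cells it was 6.06 (1.78 to 32.0), 3.34 (0.919 to 18.3) and 6.41 (1.25 to 41.3). B cell-like cells had 0.320, 0.414 and 0.310, and their intervals held 1. The higher level was thus not particular to fibroblast-like cells.

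**Figure D5:**
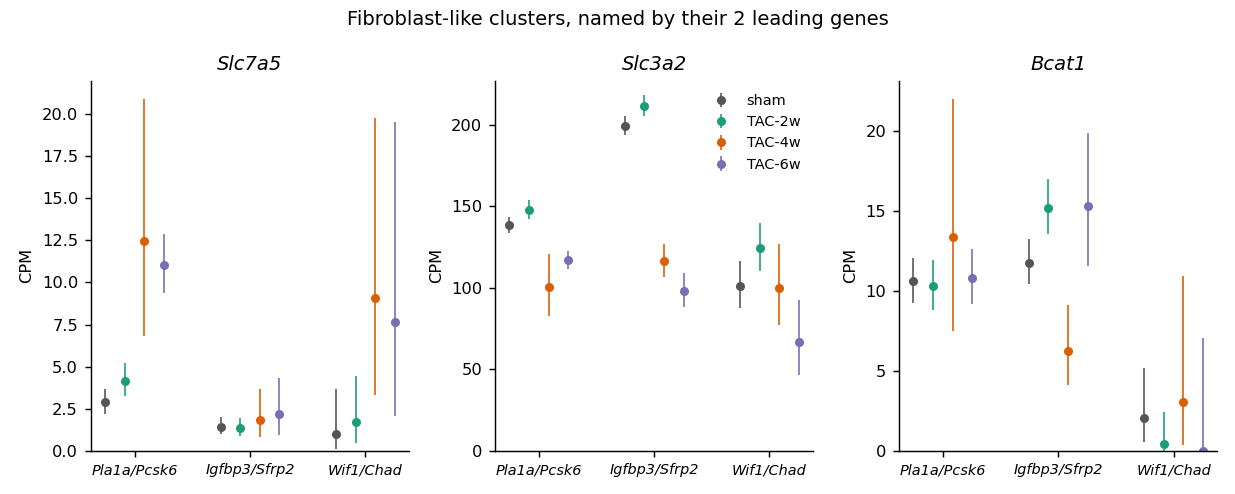
CPM of Slc7a5, Slc3a2 and Bcat1 in the 3 clusters of fibroblast-like cells, with 1 point per library and its exact 95% counting interval. Slc7a5 is at 11.02 CPM in the Pla1a cluster of TAC-6w against 2.88 in sham, and Bcat1 is low in the Wif1 cluster.

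Slc3a2, the partner of Slc7a5 at the membrane, went the other way in fibroblast-like cells. It had 167 CPM (164 to 171) in sham, 179 (175 to 183) in TAC-2w, 112 (104 to 120) in TAC-4w and 112 (107 to 117) in TAC-6w. TAC-4w and TAC-6w lay below the others, with ratios of 0.668 (0.617 to 0.723) and 0.669 (0.637 to 0.702), just short of the fold. When each cell was named by its own marker score the ratios were 0.656 and 0.617, past it. The fall was larger in the Igfbp3 cluster, which had 199, 212, 116 and 98.2 CPM. Its TAC-4w and TAC-6w ratios of 0.584 and 0.492 were past the fold. In the Pla1a cluster, with 139, 148, 101 and 117 CPM, these ratios were 0.726 and 0.844. In macrophage-like cells it had 295, 301, 202 and 231 CPM, again lower in TAC-4w and TAC-6w.

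Across types, median levels of Slc3a2 were highest in T cell-like (377 CPM, 207 to 408 over libraries), neutrophil-like (352, 292 to 402) and NK cell-like cells (332, 246 to 418), whose ranges overlapped. Dividing cell-like (267), macrophage-like (263), endothelial cell-like (227) and monocyte-like cells (183) followed, and fibroblast-like (140), B cell-like (134) and smooth muscle cell or pericyte-like cells (128) overlapped in their ranges. Cardiomyocyte-like barcodes had 15.9 CPM in sham and 18.8 in TAC-2w on 6 UMIs each, and red blood cell-like (20.3) and platelet-like cells (41.2) were also low. In TAC-4w, where the section was higher than sham, the ratio to sham was 0.726 (0.618 to 0.858) in neutrophil-like, 0.563 (0.480 to 0.661) in T cell-like and 0.589 (0.505 to 0.688) in NK cell-like cells.

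Of the 10 members, all reached 50 UMIs in the fibroblast-like cells of either library compared. In TAC-2w, 0 were higher past the fold (2.2% of 12477 genes were) and 0 lower (1.52% of genes). In TAC-4w, 2 were higher, Slc7a5 (on 28 UMIs) and Ppm1k (12.5% of 12402 genes), and 0 lower (8.54% of genes), with Slc3a2 and Bcat1 just outside at 0.668. In TAC-6w, 1 was higher, Slc7a5 (6.72% of 12389 genes), and 1 lower, Dld (15% of genes). These counts are near the background, and the medians over the members, 1.06, 1.08 and 0.991, stood beside 1.02, 1.07 and 0.931 over all genes.

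Among the BCKDH subunits and regulators in fibroblast-like cells, Dld had 54.3 CPM in sham and 52.3, 47.3 and 32.8 CPM after TAC, in order of time. The TAC-6w ratio of 0.604 (0.552 to 0.661) was met by 0.580 in the Pla1a cluster, 0.631 in the Igfbp3 cluster and 0.570 (0.436 to 0.736) in macrophage-like cells. Bckdha had 27.2, 33.3, 30.6 and 31.5 CPM, above sham in all 3 TAC libraries, and Bckdhb (8.75 to 11.2 CPM), Dbt (11.5 to 14.8 CPM) and Bckdk (30.9 to 33.3 CPM) varied less. Dbt, lower in the TAC-4w and TAC-6w sections, had ratios of 1.04 (0.828 to 1.30) and 0.808 (0.689 to 0.945) there. In endothelial cell-like cells they were 0.253 (0.145 to 0.425, 20 and 61 UMIs) and 0.441 (0.170 to 0.965, 7 UMIs in TAC-6w). In macrophage-like cells (0.819 and 0.704) and B cell-like cells (0.980 and 0.552) the intervals held 1. The part of these cells in the Dbt result of the sections was not tested. Ppm1k had 9.71, 11.4, 19.4 and 9.07 CPM, highest in TAC-4w at a ratio of 2.00 (1.62 to 2.45), and in TAC-6w within counting error of sham, at 0.935 (0.778 to 1.12). The lower Ppm1k of the TAC-6w section was not seen in its fibroblast-like cells, nor in its macrophage-like cells (1.12, 0.777 to 1.60), and cardiomyocyte-like barcodes were too few in TAC-6w to give a value. In types with fewer UMIs it was lower in monocyte-like cells (0.215, 0.0247 to 0.861, 2 UMIs in TAC-6w and 25 in sham), and B cell-like (0.562, 0.267 to 1.21) and endothelial cell-like cells (0.769, 0.311 to 1.67) lay within counting error of 1. Kinase UMIs over phosphatase UMIs in fibroblast-like cells were 3.27, 2.91, 1.59 and 3.67, with TAC-4w lowest.

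By type, Dld and Bckdhb stood highest in the cardiomyocyte-like barcodes, at medians of 179 and 32.3 CPM over 2 libraries, and the next types had 82.9 CPM (smooth muscle cell or pericyte-like) and 10.1 CPM (fibroblast-like). Bckdha (66.8 CPM) and Bckdk (53.5 CPM) were also highest there, ahead of 35.5 CPM in smooth muscle cell or pericyte-like and 35.8 CPM in dividing cell-like cells. The cardiomyocyte-like values rest on 124, 23, 48 and 37 UMIs for Dld, Bckdhb, Bckdha and Bckdk. Dbt was highest in smooth muscle cell or pericyte-like cells (26.7 CPM, 55 UMIs). Among types with nuclei other than neutrophil-like cells, Ppm1k medians lay between 9.52 and 22.8 CPM. The highest was again that of the cardiomyocyte-like barcodes (16 UMIs), ahead of 15.8 CPM in B cell-like cells. The ranges over libraries of these 2 types overlapped (21.9 to 23.8 and 11.1 to 22.5 CPM). Of the types with 50 cells in all 4 libraries, neutrophil-like cells had the lowest median for 8 of the 10 members, all but Slc3a2 and Bcat1, with 1 UMI of Dbt in 4 libraries.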

How the data were processed

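Against mm10, the authors counted UMIs of each gene in spots (Space Ranger) and in barcoded cells (Cell Ranger) and deposited these counts without normalization. The file headers name Space Ranger 1.2.0 and Cell Ranger 6.0.0, the submitters' processing notes Space Ranger 1.3.1 and Cell Ranger 7.0.0. Totals were 25996378 to 48754396 UMIs per section and 28793316 to 86671674 per library.

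Levels are summed counts per 1000000 UMIs without mt- genes, with exact Poisson 95% intervals. Ratios have exact conditional binomial and shares exact Clopper-Pearson intervals (Python 3.11.15, scipy 1.17.1). All cover counting error only. With 1 sample per condition, no test between conditions was made. Cells had 200 to 6000 genes, 500 to 30000 UMIs and under 15% mitochondrial UMIs. Doublets were scored with Scrublet, through scanpy 1.11.5, at an expected rate of 7%, and the 3.2% highest removed. Cells were clustered in Seurat 5.3.0 (R 4.3.3) on 30 components of 3000 variable genes at resolution 0.25, and types needed 50 cells in a library. Values thinned to a fixed depth are expectations over all draws.

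The members and lists were chosen with earlier results of these data known. Named are all members, list genes past 1.5-fold with at least 50 UMIs (at most 5 per direction, section and list), and the 3 genes most like Bcat1, Bcat2 and Slc7a5 among genes of at least 500 UMIs. The ratio interval was tested on simulated data. Alternatives varied the spots, the totals, the filters and the naming of cells.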

Additional observations from a re-analysis of the deposited data

Results flagged for a closer look

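Comparisons with at least 50 UMIs in one or the other sample are given first. In them, a pair of members had every TAC ratio to sham on one side of 1 in the sections. In a cell type their ratios lay on the other side. Bckdha was below sham in the sections (0.770 in TAC-2w, 0.829 in TAC-4w and 0.740 in TAC-6w) and above it in fibroblast-like cells (1.22, 1.12 and 1.16). The interval of the fibroblast-like ratio reached below 1 in TAC-4w, at 0.958. Ppm1k was below sham in the sections (0.889, 0.865 and 0.543) and above it in macrophage-like cells (1.06, 1.04 and 1.12), where all 3 intervals held 1. Slc7a5, under that minimum in the depth-matched sections, lay below sham there as well (0.261, 0.822 and 0.375). It was above sham in fibroblast-like (1.23, 2.21 and 4.42), macrophage-like (1.08, 5.42 and 2.36) and endothelial cell-like cells (6.06, 3.34 and 6.41). These differences were not tested, since each condition has 1 section and 1 library, and sections and libraries fall into batches in different ways.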

How the results depend on the processing

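The sections were recomputed in 9 other ways, and the cells in 7 ways and without each library in turn. The number of members past the fold moved with the choice in these cases. Lower members in TAC-2w were 2 in spots of 5000 to 10000 UMIs and 0 with mitochondrial genes in the total. In TAC-4w the higher one was lost (0) with all spots, spots of 10000 to 20000 UMIs, spots thinned to 5000 UMIs and without edge spots, and the lower ones were 2 in spots of 5000 to 10000 UMIs and 0 with mitochondrial genes in the total. In TAC-6w the lower ones were 4 in spots of 5000 to 10000 UMIs and 2 as a mean of spot CPM. Slc3a2 stayed on its side of 1 in each of them, between 0.595 and 0.724 in TAC-2w and between 1.42 and 1.77 in TAC-4w. These Slc3a2 ratios were past the fold in 8 of 9 ways in TAC-2w and in 5 of 9 in TAC-4w, those of Dbt in TAC-4w in 8 of 9 and those of Ppm1k in TAC-6w in 9 of 9. With mitochondrial genes in the total, ratios near 1 changed side for Bckdk in all 3 TAC sections, for Ppm1k in TAC-2w and TAC-4w and for Slc3a2, Bcat2 and Dld in TAC-6w. Bckdhb and Dbt in TAC-2w (main ratios 1.01) and Slc3a2 in TAC-6w (0.998) also lay on the other side of 1 in 4, 2 and 4 of 9 ways. With no minimum of counts, 12.8 and 23.5% of genes were past the fold in TAC-2w (higher and lower), 16.9 and 21.3% in TAC-4w and 18.7 and 12.3% in TAC-6w. With all spots, 2 pathway genes were lower past the fold in TAC-2w (9.93% of 11410 genes were). In TAC-6w 2 were higher (8.51% of 11939 genes). Slc7a5 also reached 50 UMIs in TAC-4w and TAC-6w with all spots, so that 9 members were measured. Of these, 0 were higher (7.53% of 11192 genes) and 1 lower (6.23% of genes) in TAC-4w. In TAC-6w 0 of the 9 were higher and 2 lower, Ppm1k and Slc7a5 (2.04% of genes were lower). In the collagen-rich spots of this setting, 5 of 8 members were under 1 in 4 of 4 sections, beside 9.29% of 9582 genes. The minimum was again set in the other spots only. They were Bckdha, Dld, Dbt, Bcat2 and Bckdhb, without Ppm1k. For the remaining choices of spots or totals, the share of all genes past the fold was not computed. The median Bcat1 share of macrophage-like cells was 3.03% without doublet removal and 1.79% with no filter on cells. Without each library in turn, the median share in fibroblast-like cells lay between 43.0 and 44.5% and the median Slc3a2 level of macrophage-like cells between 231 and 295 CPM, and that of fibroblast-like cells between 112 and 167. In fibroblast-like cells the calls for Slc7a5, Ppm1k and Dld held in all 5 other ways each, and Slc3a2 passed the fold in TAC-4w (0.656) and TAC-6w (0.617) when cells were named by their own marker score, and in TAC-6w (0.643) when they were thinned. The cause of these changes was not tested. Alternatives added after the data were seen were the sectors of sections, the fibroblast-like clusters apart at both resolutions, the share of all genes lower in collagen-rich spots, and fibroblast-like ratios without doublet removal. No paired analysis was possible because each condition has 1 section and 1 library; the paired test over libraries compares cell types, not conditions. In depth-matched spots Slc7a5 and Bcat1 rest on at most 29 UMIs in a section.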

Other observations

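Slc7a5 lay below sham in the TAC-6w section, at 1.39 against 3.72 CPM on 8 and 29 UMIs, and above it in the fibroblast-like cells of the TAC-6w library, at 9.18 against 2.08 CPM. With all spots over tissue the section ratio was 0.595 (0.394 to 0.904). Fibroblast markers summed to 3911 CPM in the TAC-6w section and 3580 in sham, with 4 of 6 higher.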
